A study of Mus musculus with 6 samples.

Results

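Cadherins, protocadherins and the synaptic adhesion families were followed in RNA of the mouse cochlea after sound trauma, with and without mesenchymal stromal cells (MSCs). The group holds 63 genes. They were selected on the comparison between the groups, since they are the genes with an adhesion family symbol among the 3878 genes that the authors listed as down-regulated or up-regulated after MSC treatment, out of 41096 genes in the deposited table. On the down-regulated list were 59 of them, and 4 were on the up-regulated list. The values below therefore describe genes chosen by their difference, and no test of that difference is read for them.

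Cell adhesion molecules of these families span the cleft between neighbouring cells and bind partners on the opposite membrane. Classical cadherins pair with themselves and are anchored to actin by catenins, clustered protocadherins give each neuron a combination of surface isoforms, and neurexins on the axon bind neuroligins, leucine-rich repeat proteins and latrophilins on the receiving cell to organise the synapse. In the cochlea such molecules are known from the contacts of spiral ganglion neurons and glia, and related cadherins form the tip links of hair cells.

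The mice were described in the methods as female C57Bl/6 animals of 4 weeks, and the strain is labelled C56Bl/6. All animals were exposed to a 16 kHz sound, for 4 h by the methods. Sound trauma animals (specimens 6, 8 and 10) are labelled as exposed to sound only, while the methods give them 1 µl of artificial perilymph 48 h after the sound. MSC treated animals (specimens 13, 18 and 20) had the same exposure and received 1 µl of human MSCs, grown from Wharton's jelly (3 umbilical cords), in the posterior semicircular canal of the left ear. No unexposed animals entered the comparison. RNA of the left cochlea was taken 2 days after treatment by the labels and 72 h by the methods. The methods give 5 animals per group, and 3 libraries per group were analysed here.

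Values are scaled counts, which are reads per gene multiplied by 1 factor per library, listed in the order of specimens 6, 8 and 10 for sound trauma and 13, 18 and 20 for MSC treated animals. Libraries held between 9170390 and 11030863 reads on genes, and 1 read was worth 0.893 to 1.16 scaled counts. A log2 fold change is the mean of log2(scaled count + 1) in MSC treated minus that in sound trauma animals with its standard error (SE), so that negative values are lower after MSCs. Adding 1 can understate the change of genes with few reads. In RNA from a whole organ, fewer cells of a type and less RNA per cell cannot be told apart.

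The sound trauma libraries did not form a uniform group for other tissues either. Markers of other tissues had a name only if the authors listed them, so they were also selected on this comparison. Markers outside the lists are not in the sums. The 14 named markers of cerebellar granule neurons summed to 26407 scaled counts in specimen 8 and 5938 in specimen 6, against 2021 in specimen 10 and 2218 to 2751 in MSC treated animals. All 14 were on the down-regulated list and highest in specimen 8, beside 69.0% of that list. Barhl2, 1 of them, was at 0 in specimens 10 and 18. Pan-neuronal markers (6 named of 12) summed to 23850 in specimen 8 and to 4035 to 6937 in the other libraries, and astrocyte markers (5 of 7) to 13379 in specimen 8 and 2100 to 6208 elsewhere. Choroid plexus markers (4 of 6) summed to 8082 in specimen 6 and 5399 in specimen 8 but to 275 to 375 elsewhere, pituitary markers (5 of 5) to 295560 in specimen 6 and 1242 to 22158 elsewhere, and skeletal muscle markers (9 of 11) to 679620 in specimen 6, 24183 in specimen 8 and 57986 to 365070 elsewhere. The 3 named hair cell markers of 10, Pou4f3, Otof and Lhfpl5, were on the up-regulated list. They summed to 291 and 272 in specimens 6 and 8, 674 in specimen 10 and 488 to 637 in MSC treated animals. Most of each sum was Otof, with 604 in specimen 10. Only Otof was highest there, while Lhfpl5 was at 19.7 in specimen 10 and 27.0 to 34.7 in MSC treated animals. Named markers of cochlear supporting cells and the acellular matrix (3 of 7) summed to 1825, 1855 and 4331 in sound trauma. Their sums were 3006 to 3683 in MSC treated animals. Of these markers, Otog and Epyc were highest in specimen 10 and Otoa in specimen 18. Neuronal and astrocyte sums were thus highest in specimen 8, whereas pituitary and muscle sums were highest in specimen 6, and the part of these cells in the adhesion gene differences was not tested.

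**Figure D1:**
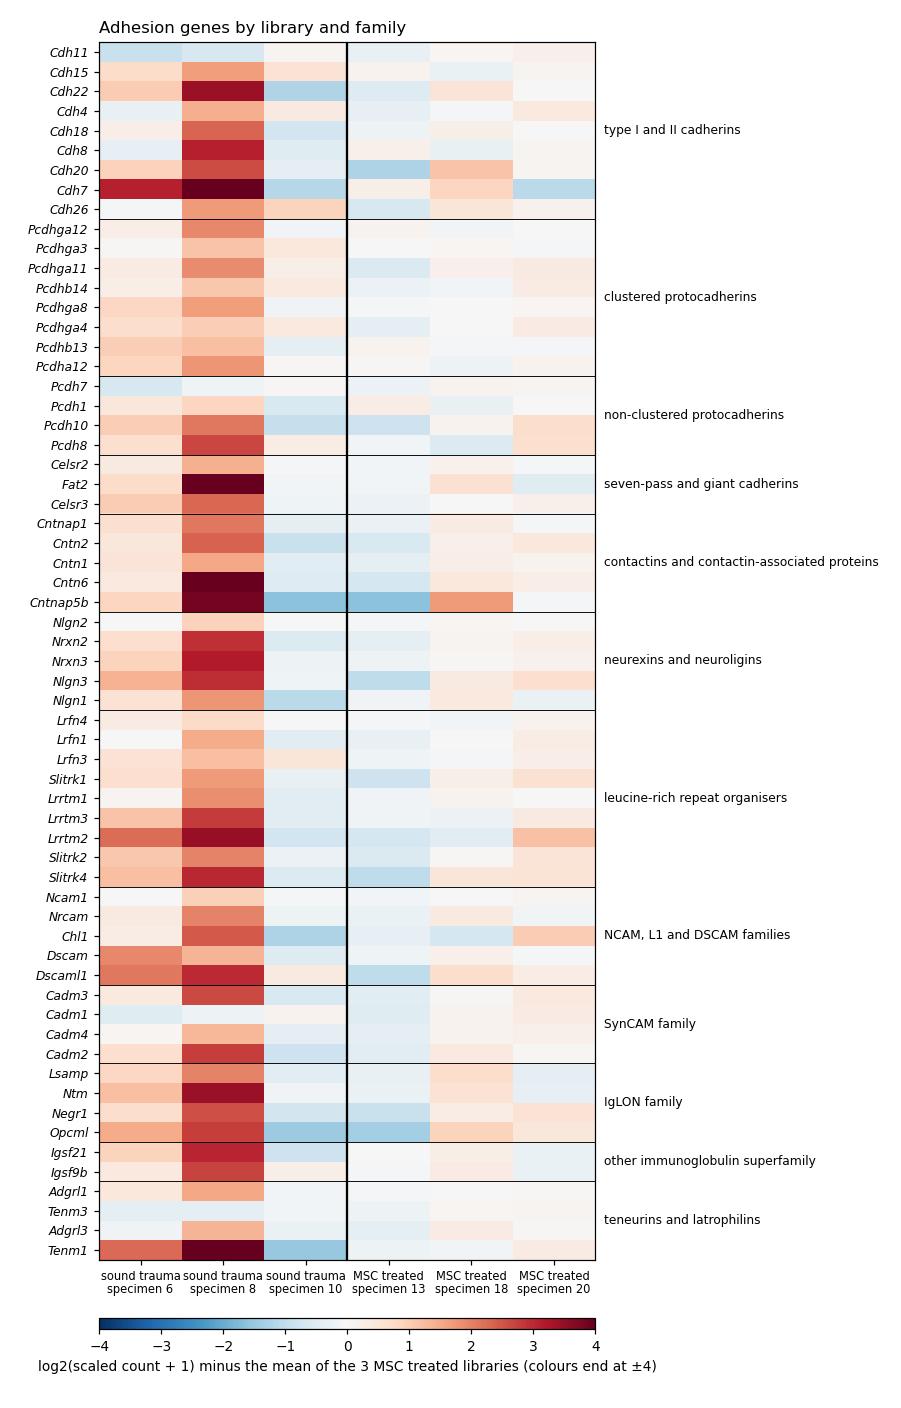
Heat map of 62 of the 63 adhesion genes (rows, grouped by family) in the 6 libraries (columns). Colour gives log2(scaled count + 1) minus the mean of the 3 MSC treated libraries for that gene, with red above and blue below that mean. The column of specimen 8 is the reddest for 57 of the 62 genes shown, specimen 6 is paler, and specimen 10 lies on both sides of the MSC treated mean.

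The adhesion genes on the down-regulated list were high in specimen 8, moderately high in specimen 6 and not high in specimen 10. Of these 59 genes, 58 had their highest value in specimen 8, and all 59 exceeded every MSC treated library there. Specimen 6 exceeded the MSC treated range for 41 of the 59. Specimen 10 exceeded it for 6, lay within it for 24 and below it for 29. Thus 38 genes were above the MSC treated range in specimens 6 and 8 but not in specimen 10. Another 15 were above it in specimen 8 alone. Over all 2741 genes of the down-regulated list, specimen 8 exceeded the range for 2213, specimen 6 for 2121 and specimen 10 for 558. On that whole list, 1291 genes were above it in specimens 6 and 8 but not in specimen 10, and 422 in specimen 8 alone. Values above the range in specimens 6 and 8 were thus not confined to the adhesion genes. The Down syndrome cell adhesion gene Dscam was the only gene of the 59 not highest in specimen 8, with its highest value in specimen 6. In some other genes specimen 10 was above specimen 6, such as Cdh26 (25.9 and 12.7) and Pcdhga3 (66.1 and 51.0).

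The size of the excess followed the same order. The median of log2(scaled count + 1) over the 59 genes lay 2.11 above the MSC treated mean in specimen 8, 0.67 above it in specimen 6 and at -0.36 in specimen 10. Specimen 8 was at least 2 times the MSC treated mean for 54 of the genes, at least 4 times for 29 and at least 8 times for 11. Specimen 6 reached 2 times the mean for 13 genes, 4 times for the 3 genes Cdh7, Lrrtm2 and Tenm1, and 8 times for Cdh7. Summed scaled counts of the 59 genes were 17270, 50722 and 10240 in sound trauma and 10534, 13670 and 13695 in MSC treated animals, so that specimen 10 was below all MSC treated libraries. Over all 2741 genes of the down-regulated list, the corresponding medians were 1.10 in specimen 8, 0.60 in specimen 6 and -0.02 in specimen 10, and 69.0% of that list was highest in specimen 8.

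After the filter on low counts, 60 of the 63 genes were fitted together with all 15970 genes. The fitted value was lower in MSC treated animals for 56 of the 60, beside 49.8% of all genes tested, a direction which the choice of the genes from the list fixed. Their median log2 fold change was -0.78, beside 0.00 over all genes tested and -0.49 over the down-regulated list. Of the 60, 3 (Cdh15, Lrfn3 and Dscaml1) had an unadjusted p under 0.05, all lower, beside 0.670% of all genes that were lower and 1.68% that were higher at that level. With Benjamini-Hochberg adjustment, 0 of the 60 and 0% of all genes passed 0.05 in limma. The edgeR quasi-likelihood test gave 6 of the 60 at the unadjusted level, beside 3.29% of all genes, and 0 adjusted. DESeq2 gave 20 of the 60, beside 5% of all genes, and 0 adjusted. The genes were selected on this comparison, so the counts at the unadjusted level are a description and no test of the group.

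The values depended on the library of specimen 8 more than on any other. Without it the median log2 fold change of the 60 genes was -0.14 in place of -0.78, and 39 rather than 56 had a lower fitted value, since 17 genes changed sign. Without specimen 10 the median was -1.33, and without specimen 6 it was -0.85. Against specimen 10 alone, a difference with no test, the median was 0.33 and 14 of the 60 genes were lower in MSC treated animals. Leaving out specimen 13, 18 or 20 gave medians of -0.58, -0.82 and -0.89. The log2 fold change of 52 of the 60 genes moved by over 1.5 times or changed sign without specimen 8, and that of 48 did so without specimen 10, each of them away from 0. The corresponding counts were 11, 16, 5 and 2 without specimens 6, 13, 18 and 20.

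**Figure D2:**
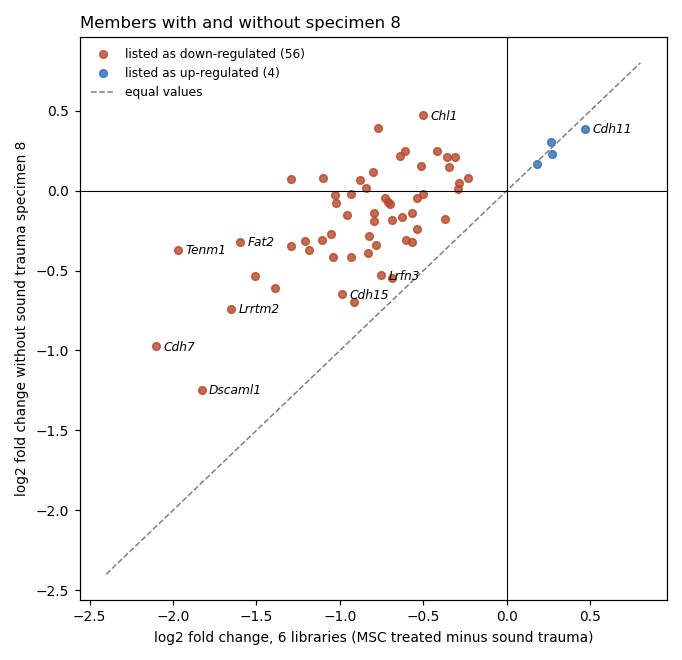
Log2 fold change (MSC treated minus sound trauma) of the 60 fitted adhesion genes on all 6 libraries (x axis) and without sound trauma specimen 8 (y axis), both in log2 units. Each point is 1 gene, and the dashed line marks equal values. Points of the down-regulated list lie above the line, 17 of them above 0 on the y axis, while the 4 genes of the up-regulated list stay near the line.

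Groups that did not overlap were found for 3 of the 63 genes, all with every sound trauma library above every MSC treated library, beside 2.92% of all genes in that direction and 4.25% in the other. Cdh15 encodes M-cadherin, which is known from muscle satellite cells and also from cerebellar granule neurons. Its scaled counts were 223, 427 and 198 in sound trauma and 149, 110 and 146 in MSC treated animals. Its log2 fold change was -0.99 ± 0.32 (SE, n = 3 per group), and -0.65 without specimen 8. Specimen 10 exceeded all 3 MSC treated libraries here, unlike in most of the group.

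Lrfn3, which encodes a leucine-rich repeat protein of the synaptic membrane that binds across the cleft, had 143, 218 and 131 against 84.2, 88.9 and 113. The gap between the lowest sound trauma and the highest MSC treated library was small beside the spread within sound trauma. Its log2 fold change was -0.75 ± 0.25, and -0.53 without specimen 8. Pcdhga4, a gamma protocadherin, had 46.4, 56.4 and 37.5 against 21.8, 28.6 and 35.9, so that specimens 10 and 20 nearly met. Its log2 fold change was -0.69 ± 0.30, and -0.55 without specimen 8.

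Of the type I and type II cadherins, 9 genes were listed, 8 of them down. Cdh7, a type II cadherin of neural tissue, had 52.2, 126 and 1.79 in sound trauma and 6.23, 10.2 and 1.94 in MSC treated animals. Specimens 6 and 8 were far above the rest, and specimen 10 had 2 reads. The log2 fold change was -2.10 ± 1.42, the lowest of the 60 genes in limma, with -0.97 without specimen 8 and -3.73 without specimen 10. In edgeR it was -3.28 and in DESeq2 -3.31.

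The type II cadherin Cdh22 had 95.0, 518 and 19.7 against 32.2, 66.4 and 45.6, and its log2 fold change turned from -1.10 to 0.08 without specimen 8. Cdh8, another type II cadherin of neurons, showed the excess in specimen 8 alone, with 15.1, 170 and 13.4 against 21.8, 15.3 and 20.4. Its log2 fold change of -0.77 became 0.39 without that library. Cdh4 (R-cadherin), Cdh18, Cdh20 and Cdh26 had log2 fold changes between -1.06 and -0.50 and were likewise highest in specimen 8. Without that library Cdh18 turned from -0.61 to 0.25, and Cdh4, Cdh20 and Cdh26 were at -0.02, -0.27 and -0.39.

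Cdh11 encodes a cadherin of mesenchymal and bone-forming cells and was the cadherin listed as up-regulated. Its scaled counts were 721, 860 and 1432 in sound trauma and 1093, 1408 and 1530 in MSC treated animals. Specimens 6 and 8 were below all MSC treated libraries, while specimen 10 lay among them. Cdh11 had a log2 fold change of 0.47 ± 0.28, which was 0.26 without specimen 6 and 0.76 without specimen 10. The bone and connective tissue marker Col1a2 was at 52038, 62243 and 103770 in sound trauma and 65133, 85171 and 91941 in MSC treated animals, so that specimens 6 and 8 were lowest, as for Cdh11. The other 2 named markers of that list of 9 had another order, with 1633, 961 and 2205 against 2369, 1268 and 1913 for Postn and 4169, 3305 and 4695 against 4605, 4129 and 4931 for Dcn. Their part in the Cdh11 values was not tested.

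Clustered protocadherins, which neurons use to tell their own branches from those of others, were represented by 8 genes of the alpha, beta and gamma clusters. All 8 were on the down-regulated list and highest in specimen 8. Their values there were between 1.96 and 3.84 times the MSC treated mean. Pcdhga11 had 47.5, 143 and 44.7 against 24.9, 43.9 and 48.5, and Pcdhga12 had 83.4, 267 and 64.3 against 75.8, 64.3 and 67.9. In both genes specimens 6 and 10 lay close to the MSC treated libraries and only specimen 8 stood apart.

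Pcdhga3 had 51.0, 109 and 66.1 against 48.8, 52.1 and 46.6, with specimens 8 and 10 above all MSC treated libraries. Over the 7 fitted genes of these clusters the median log2 fold change was -0.69, and -0.31 without specimen 8, with all 7 lower in both cases. Pcdhga8, Pcdhb13 and Pcdhb14 had log2 fold changes of -0.78, -0.60 and -0.57. Pcdha12 did not pass the filter, with 11.6, 22.9 and 6.25 against 6.23, 5.11 and 6.79. Gamma transcripts share their last exons, as do alpha transcripts, so reads on these exons cannot be assigned to 1 gene, and the counts of single isoforms are uncertain.

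Non-clustered protocadherins stand alone in the genome and are known from axon sorting and cell migration. Pcdh10 had 137, 295 and 35.7 against 37.4, 74.6 and 112, so that specimens 6 and 8 were above and specimen 10 below all MSC treated animals. Its log2 fold change was -0.73 ± 0.80, and -0.05 without specimen 8. Pcdh1, which is also made in epithelia, had 591, 790 and 288 against 536, 353 and 438, and its log2 fold change turned from -0.23 to 0.08 without specimen 8. It was the member of the down-regulated list nearest to no change, with an MSC treated mean 0.796 times the sound trauma mean. Pcdh7, listed as up-regulated, had 402, 559 and 656 against 534, 699 and 681, with a log2 fold change of 0.26 ± 0.21, which was 0.06 without specimen 6 and 0.42 without specimen 10. Pcdh8 did not pass the filter, with 26.8 in specimen 8 and 2.04 to 5.82 in the other libraries.

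Among the largest cadherins, Fat2 showed one of the widest contrasts between libraries. Fat2 is an atypical cadherin known from the parallel fibres of cerebellar granule neurons. Its scaled counts were 270, 2872 and 149 in sound trauma and 149, 243 and 115 in MSC treated animals. The value of specimen 8 was 17.0 times the MSC treated mean, while specimen 10 lay within the MSC treated range. For Fat2 the log2 fold change was -1.60 ± 1.06, and -0.32 without specimen 8. The granule neuron markers Gabra6 and Cbln3 were at 1431 and 5660 in specimen 8 and at 0.893 and 8.04 in specimen 10, and the part of such cells in the Fat2 values was not tested.

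Celsr2 and Celsr3 encode seven-pass cadherins of planar polarity, and Celsr3 guides axon tracts. Celsr3 had 629, 1540 and 276 against 267, 316 and 361, and Celsr2 had 707, 1500 and 527 against 511, 627 and 531. Specimens 6 and 8 were above all MSC treated libraries for both, and specimen 10 was within their range. The log2 fold changes were -1.04 ± 0.58 for Celsr3 and -0.57 ± 0.37 for Celsr2, and -0.42 and -0.14 without specimen 8.

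**Figure D3:**
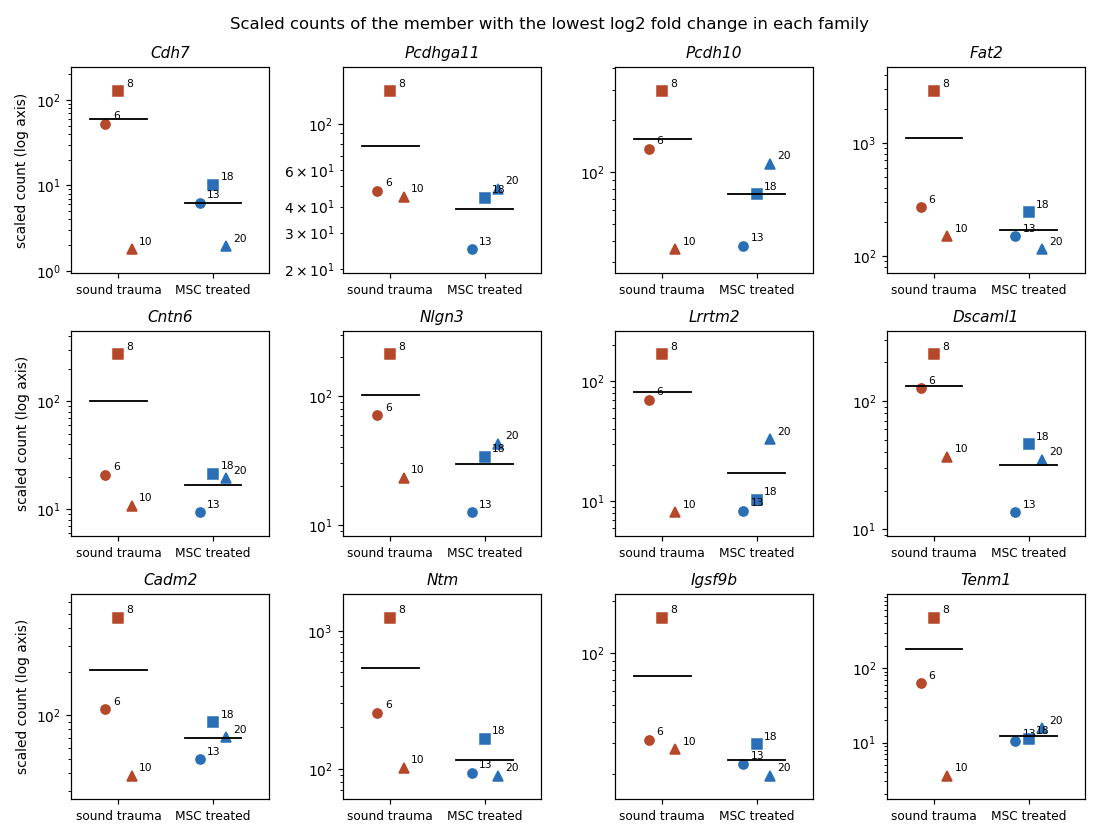
Scaled counts (log axis) of the gene with the lowest log2 fold change in each of the 12 families. Each point is 1 library, labelled with its specimen number, and the horizontal bar is the group mean. In every panel specimen 8 is the highest library, and specimen 10 lies below specimens 6 and 8.

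Neurexins are presynaptic organisers and neuroligins are their postsynaptic partners. All 6 listed genes were highest in specimen 8. Nrxn2 had 977, 4573 and 419 in sound trauma and 460, 660 and 737 in MSC treated animals. Nrxn3 had 291, 1426 and 136 against 134, 160 and 177. Thus specimens 6 and 8 were above the MSC treated range for both genes, and specimen 10 was below it for Nrxn2 and within it for Nrxn3. The log2 fold changes were -1.02 ± 0.82 for Nrxn2 and -1.29 ± 0.80 for Nrxn3. Without specimen 8 they were -0.08 and -0.35.

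The neuroligins were less alike. Nlgn3 had 70.7, 210 and 23.2 against 12.5, 33.7 and 42.7, with a log2 fold change of -1.39 ± 0.84, and -0.61 without specimen 8. Nlgn2, the neuroligin of inhibitory synapses, had 1231, 2340 and 1241 against 1180, 1311 and 1250. All libraries but specimen 8 lay between 1180 and 1311. Without that library its log2 fold change was 0.01 in place of -0.29. Nlgn1, the neuroligin of excitatory synapses, had 49.8, 114 and 15.2 against 30.1, 43.9 and 27.2, and its log2 fold change turned from -0.42 to 0.25.

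Contactins are immunoglobulin proteins held by a lipid anchor on axons and glia, and contactin-associated proteins join them at the edges of nodes of Ranvier. Cntn6 had 20.9, 272 and 10.7 against 9.35, 21.4 and 19.4, so that specimen 6 was within the MSC treated range and specimen 8 far above it. Its log2 fold change was -1.29 ± 1.15, and 0.07 without specimen 8. Cntnap1 (Caspr), which seals the paranodal junction of myelinated axons, had 882, 2482 and 447 against 474, 714 and 548, with -0.80 ± 0.59, and -0.14 without specimen 8. Cntn1, its paranodal partner, had 854, 1724 and 440 against 449, 720 and 650, and Cntn2 (TAG-1) had 673, 2549 and 269 against 326, 566 and 656. The 3 genes of myelinated axons were above the MSC treated range in specimens 6 and 8 and below it in specimen 10. The log2 fold change of Cntn2 turned from -0.64 to 0.22 without specimen 8.

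Oligodendrocyte markers (9 named of 10) stood beside these values with sums of 23744, 33336 and 10198 in sound trauma and 9251, 23296 and 11884 in MSC treated animals. Specimen 18 was high in them, and of the MSC treated libraries it was also the highest for Cntnap1 and Cntn1, though not for Cntn2. The only Schwann cell marker named, Egr2, was at 89.2, 95.6 and 225 against 136, 193 and 337. The part of either glial cell in the contactin values was not tested. Cntnap5b did not pass the filter, with 43.0 in specimen 8, 9.19 in specimen 18 and 0 reads in specimens 10 and 13, where a count of 0 allows up to 3 reads.

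Leucine-rich repeat organisers sit in the postsynaptic membrane and bind neurexins or receptor phosphatases. All 9 listed genes were highest in specimen 8. Lrrtm2, a neurexin ligand of excitatory synapses, had 70.7, 168 and 8.04 against 8.31, 10.2 and 33.0. Specimens 6 and 8 were above and specimen 10 below all MSC treated libraries. The log2 fold change was -1.65 ± 1.11, and -0.74 without specimen 8. Lrfn4 had 228, 304 and 182 against 176, 167 and 198, with -0.37 ± 0.22, and -0.18 without specimen 8. Lrfn1 had 127, 353 and 91.1 against 101, 127 and 152, and its log2 fold change turned from -0.36 to 0.21 without specimen 8. The other 5 genes, Lrrtm1, Lrrtm3, Slitrk1, Slitrk2 and Slitrk4, ranged from -1.21 to -0.52, and Lrrtm1 turned from -0.52 to 0.16 without specimen 8.

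Of the NCAM, L1 and DSCAM families, the DSCAM genes differed from the common pattern in how high specimen 6 was. Dscam and Dscaml1 guide the spacing and layering of neurites in retina and brain. Dscam had 299, 202 and 54.5 against 69.6, 90.9 and 76.7. Dscaml1 had 125, 230 and 36.6 against 13.5, 45.96 and 34.9. For both, specimens 6 and 8 were above every MSC treated library. The log2 fold changes were -0.91 ± 0.61 and -1.83 ± 0.75, and they were -0.70 and -1.25 without specimen 8. Without specimen 6 they were -0.41 for Dscam and -1.68 for Dscaml1. Without specimen 10 they were -1.63 and -2.56.

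Ncam1, the neural cell adhesion molecule of many cell types, had 1255, 2470 and 1190 against 1167, 1281 and 1355. Outside specimen 8 its libraries were level, and leaving that library out moved the fit from -0.29 to 0.05 on the log2 scale. Nrcam, which gathers channels at nodes of Ranvier, had 287, 897 and 193 against 188, 287 and 210, with -0.71 ± 0.55 and -0.07 without specimen 8. Chl1, an L1 family protein of growing axons, had 143, 639 and 48.2 against 92.5, 70.5 and 237. Its MSC treated libraries were themselves spread, and its log2 fold change turned from -0.50 to 0.47 without specimen 8.

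SynCAM proteins, encoded by the Cadm genes, join axons to dendrites and to the glia that wrap them. Cadm3 had 1250, 5961 and 618 against 691, 993 and 1260, and its log2 fold change turned from -0.80 ± 0.79 to 0.12 without specimen 8. Cadm2 had 110, 469 and 38.4 against 49.9, 89.9 and 70.9, and turned from -0.88 to 0.07. Cadm4, the member of myelinating glia, had 633, 1507 and 455 against 462, 658 and 691, and turned from -0.35 to 0.15. None of these 3 genes kept a lower fitted value without that library. Cadm1, which is also made in epithelial cells, was listed as up-regulated with 1005, 1222 and 1554 against 998, 1563 and 1769. Its groups overlapped, and the log2 fold change of 0.18 ± 0.26 was 0.03 without specimen 6, 0.01 without specimen 20, 0.34 without specimen 10 and 0.42 without specimen 13.

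IgLON proteins are small lipid-anchored immunoglobulins on neurons. All 4 listed genes were above the MSC treated range in both specimen 6 and specimen 8, and within or below it in specimen 10. Ntm (neurotrimin) had 256, 1243 and 102 against 93.5, 165 and 89.3, with -1.51 ± 0.87 and -0.53 without specimen 8. Lsamp had 868, 1973 and 366 against 400, 807 and 373, with -0.79 ± 0.63 and -0.19 without specimen 8. Opcml and Negr1 had log2 fold changes of -0.93 and -0.84, which were -0.02 and 0.02 without that library. Igsf9b and Igsf21, synaptic immunoglobulin proteins of other groups, had log2 fold changes of -1.11 ± 0.68 and -1.03 ± 0.91, and -0.31 and -0.03 without specimen 8. Igsf21 was 459 in specimen 8, 103 in specimen 6 and 30.4 in specimen 10, beside 45.6 to 66.4 in MSC treated animals, and Igsf9b was 161, 31.3 and 27.7 in the same order, beside 19.4 to 29.6.

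Teneurins and latrophilins bind each other across the synapse. Tenm1 had 62.6, 477 and 3.57 in sound trauma and 10.4, 11.2 and 15.5 in MSC treated animals. Its value in specimen 8 was 38.5 times the MSC treated mean, the highest ratio of the 63 genes, while specimen 10 held 4 reads and was below every MSC treated library. The log2 fold change was -1.97 ± 1.55, with -0.37 without specimen 8 and -3.72 without specimen 10. On the recovered reads it was -3.87 in edgeR and -3.88 in DESeq2. Tenm3, listed as up-regulated, had 557, 554 and 664 against 614, 758 and 776, with 0.27 ± 0.15 and specimen 10 within the MSC treated range. Adgrl1 (latrophilin 1) had 1568, 3406 and 1078 against 1128, 1144 and 1210, with -0.63 ± 0.40 and -0.16 without specimen 8. Adgrl3 had 170, 482 and 157 against 146, 237 and 195, and its log2 fold change turned from -0.31 to 0.21 without specimen 8.

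**Figure D4:**
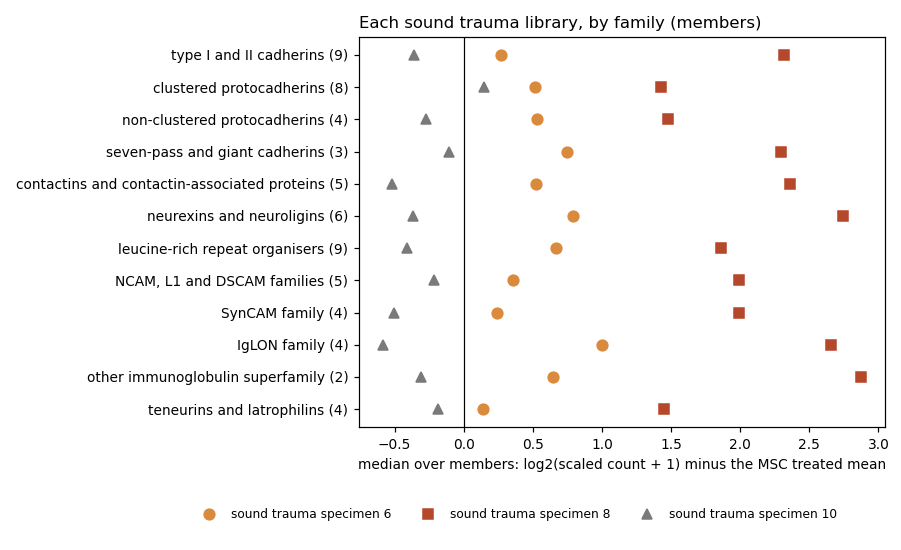
Median over the genes of each family (number of genes in brackets) of log2(scaled count + 1) minus the MSC treated mean, for each sound trauma library. The x axis is in log2 units and 0 marks the MSC treated mean. Specimen 8 lies between 1.43 and 2.88 in all 12 families, specimen 6 lies above 0 in all of them, and specimen 10 lies below 0 in all but the clustered protocadherins.

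Across the families, the order of the 3 sound trauma libraries was the same. The median in specimen 8 was highest for Igsf9b and Igsf21 (2.88 above the MSC treated mean), the neurexins and neuroligins (2.74) and the IgLON genes (2.66), and lowest for the clustered protocadherins (1.43). In specimen 10 the medians ran from -0.58 in the IgLON genes to 0.15 in the clustered protocadherins. The families differ in how many reads their genes had, so these medians are a description.

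Levels between genes can be compared per length on the authors' mean FPKM, which has no error. By the sound trauma mean the highest were Cadm4, Cadm3, Nlgn2 and Adgrl1, an order that includes specimen 8, where Cadm3 was far above its other libraries and Nlgn2 less so. Their means in sound trauma and MSC treated animals were 40.04 and 29.0 for Cadm4, 37.3 and 14.3 for Cadm3, 27.6 and 22.3 for Nlgn2, and 24.9 and 14.8 for Adgrl1. Cdh11, the highest by the MSC treated mean, had 21.2 and 29.6, and Ncam1 had 20.4 and 16.4.

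The 4 genes of the up-regulated list were Cdh11, Cadm1, Tenm3 and Pcdh7. Their sums were 2685, 3195 and 4305 in sound trauma and 3239, 4427 and 4756 in MSC treated animals. In these sums specimens 6 and 8 were lower than all MSC treated libraries, and specimen 10 was among them. The single genes were not alike, since all sound trauma values of Cadm1 and specimen 8 for Pcdh7 lay within the MSC treated range. Of the 4, 3 were highest in specimen 20 and 1 in specimen 18. The MSC treated mean was 1.15 to 1.21 times the sound trauma mean for Cadm1, Pcdh7 and Tenm3, the members nearest to no change on that list. The median log2 fold change of the 4 genes was 0.27, and 0.26 without specimen 8, unlike in the down-regulated list. It ran from 0.15 without specimen 6 to 0.40 without specimen 13.

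**Figure D5:**
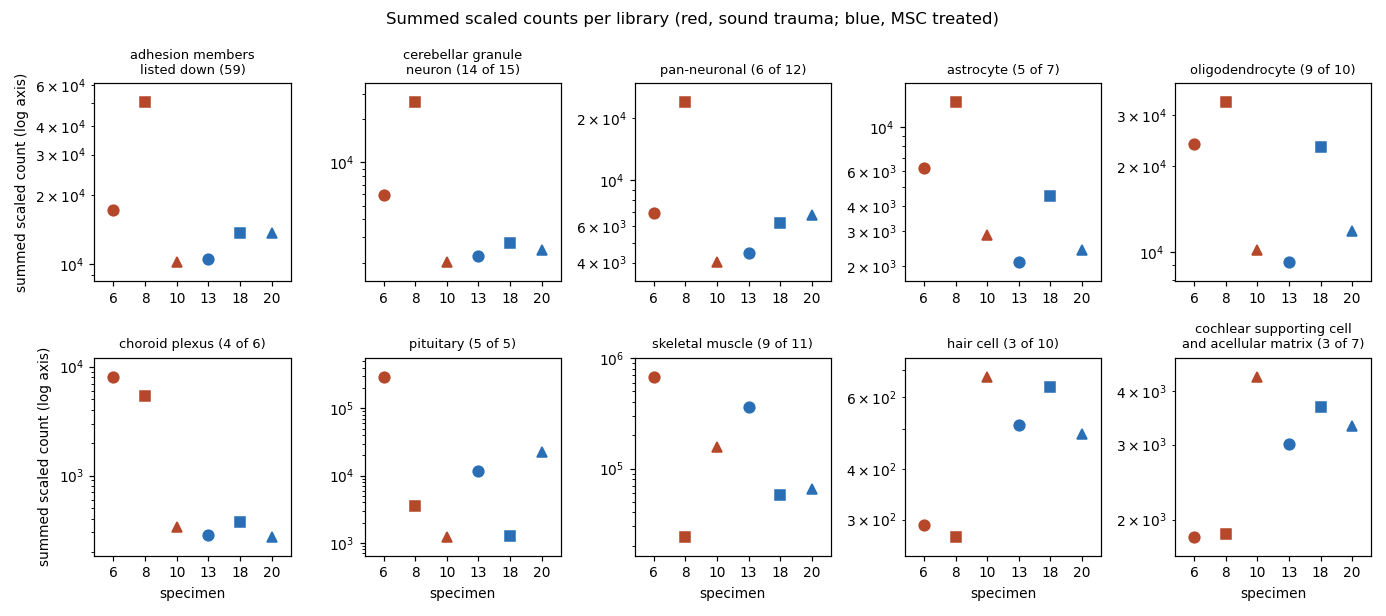
Summed scaled counts (log axes) in each library for the 59 adhesion genes of the down-regulated list and for marker lists of other cell types, with the number of named markers of each list in brackets. Red points are sound trauma specimens 6, 8 and 10 and blue points MSC treated specimens 13, 18 and 20. Sums of adhesion genes, granule neuron and pan-neuronal markers peak in specimen 8, and those of pituitary and muscle markers in specimen 6. The hair cell sum peaks in specimen 10 through Otof. All named markers were on the authors' lists.

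Binding partners of the adhesion families were looked up among the named genes, all of which were also selected by the authors on this comparison. Of 31 ligands and transmembrane partners, 16 had a name. All 16 were on the down-regulated list, which holds 2741 of the 3878 listed genes, 14 were highest in specimen 8, beside 69.0% of that list, and 14 of the 15 fitted had a lower fitted value, 0 of them at an unadjusted p under 0.05. Their median log2 fold change was -0.86, and -0.24 without specimen 8. Cbln1, a secreted synapse organiser that binds neurexins, had 575, 3761 and 55.4 against 43.6, 160 and 56.3. It followed the order of Nrxn2 within sound trauma, with specimen 10 within the MSC treated range. Ptprs, a receptor phosphatase that binds leucine-rich repeat proteins, had 3583, 4282 and 4011 against 2842, 3668 and 3712, a much flatter course.

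Of 23 scaffold proteins, 10 had a name, and all 10 were listed down, beside 2741 of the 3878 listed genes. All 10 were highest in specimen 8, beside 69.0% of the down-regulated list. The median over these scaffolds was -0.87 on the log2 scale, and -0.30 without that library. Dlg4 (PSD-95), which holds neuroligins at excitatory synapses, had 921, 2405 and 490 against 548, 618 and 676. Gphn (gephyrin), the scaffold of inhibitory synapses, had 450, 476 and 269 against 316, 256 and 250, and here specimen 6 was almost as high as specimen 8. Of 7 catenins 5 had a name, 3 listed down and 2 up, with 0 at an unadjusted p under 0.05. Ctnnb1 (beta-catenin) had 4562, 4998 and 5752 against 5266, 5717 and 5480 and Ctnnd2, a catenin of neurons, had 444, 1193 and 276 against 204, 354 and 301. Ctnnb1 was thus lowest in specimens 6 and 8, and Ctnnd2 was highest in specimen 8. Jup and Ctnna3 were highest in specimen 6, and Ctnna1 was lowest in specimen 8.

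Promoters of the adhesion genes were searched for the site of REST, a repressor known to keep many neuronal genes silent outside neurons. RefSeq (GRCm38.p6) windows from 250 bases before to 50 after the start site were found for 41 of the 63 genes, 53 windows in all. They held a median of 14 CpG dinucleotides, against 7 over all 32851 windows. The left part of the REST site RE1, TTCAGCACC on either strand, was present in 3 of the 53 windows (5.66%) and in 0.371% of all windows, and the right part, GGACAGCG, in 0 of the 53 and 1.26% of all. The motif was chosen after other short motifs had been looked at, so these shares are a description, and a match is not evidence of binding. The 3 stretches are shown with the match in capitals, 5′ to 3′ on the strand of the gene. Each has 25 bases on either side of the match. The start sites are those of the RefSeq models, and Nlgn1 has more than 1.
Celsr3 (chr9:108825893-108825951, plus strand): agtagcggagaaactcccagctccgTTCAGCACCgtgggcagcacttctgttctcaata
Cntnap5b (chr1:99772370-99772428, plus strand): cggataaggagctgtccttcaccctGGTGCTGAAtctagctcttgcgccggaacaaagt
Nlgn1 (chr3:26154106-26154164, minus strand): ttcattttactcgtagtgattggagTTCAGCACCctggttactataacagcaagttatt

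In Celsr3 the match began 127 bases and in Nlgn1 153 bases upstream of the start site, and in Cntnap5b the reverse complement of the motif lay across the start site itself. The surrounding 300 bases held 25 CpG dinucleotides in Celsr3, 14 in Cntnap5b and 6 in Nlgn1. All 3 genes were highest in specimen 8, as were 58 of the 59 adhesion genes of the down-regulated list. Celsr3 and Nlgn1 were above the MSC treated range in specimens 6 and 8, and Cntnap5b in specimen 8 alone.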

How the data were processed

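Left cochlea RNA of 3 sound trauma and 3 MSC treated mice was measured by sequencing. Reads were trimmed and aligned to the C57BL/6NJ genome in the AIR software, and the authors deposited a signal per gene, the read count times 1 factor per library. The counting tool and its use of strand are not given in the sources used here. The deposited lists also hold the authors' mean FPKM of each group, used only to compare levels between genes, and an FDR and fold change, which were not used. Labels do not say more about replicates than 1 specimen each, so p-values measure the spread between these specimens.

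Dividing by the value of 1 read gave whole numbers for 100% of values within a tolerance of 0.001, and these were taken as reads. The 15970 genes that passed filterByExpr on these reads were fitted with limma-trend on log2(scaled count + 1), with edgeR and DESeq2 on the recovered reads as alternatives, other scalings, pseudocounts and filters, and each library left out in turn. The tests were checked on simulated data. The 20 most abundant genes took 5.39% to 14.8% of the reads. Python 3.11.15 (pandas 2.3.3, scipy 1.17.1) was used for tables, and R 4.3.3 for the fits (DESeq2 1.42.0, edgeR 4.0.16, limma 3.58.1).

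Names came from the authors' lists. Members and gene lists were chosen with earlier results of these data known. Per family, the 2 genes with the highest mean, those with the lowest and highest log2 fold change, up-listed genes, genes without overlap and genes not highest in specimen 8 were named by rule, 37 in all. Other genes were named after their values were seen. 1 gene with a matching symbol was not used here. Single values of some genes are not reported here because they are withheld, while counts and medians over the groups include them.

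Marker lists not described in the report were stria vascularis (4 of 6 named, sums of 1456 to 2768), leukocyte (1 of 8, Cd68, 812 to 1495) and spiral ganglion (1 of 6, Ntrk3, 336 to 1216).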

Additional observations from a re-analysis of the deposited data

How the results depend on the processing

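No paired analysis was possible because the labels give each specimen a number of its own and the groups share none. Genes past an adjusted p of 0.05 over all genes numbered 0 under every pseudocount, scaling, filter and tool tried, and 0 to 1 when 1 library was left out, with the 1 found without specimen 10. The median log2 fold change of the adhesion genes was -0.79 to -0.70 under other pseudocounts, scalings and filters, and -1.07 in both edgeR and DESeq2. It was -1.33 to -0.14 with 1 library left out, and 39 to 56 of the 60 genes then had a lower fitted value. Leaving out specimens 6 and 8 together, an alternative chosen after seeing the data, left 14 of the 60 lower and a median of 0.33, with 1 sound trauma library and no test. The cause was not tested. With median-ratio size factors 4 genes rather than 3 did not overlap between groups. Of the 37 genes named by rule, 8 changed sign without specimen 8, and 0 did without any other single library or under the other pseudocounts, scalings and tools. They were not counted under the filters or without specimens 6 and 8 together. The standard errors of Tenm1 and Cdh7, with 4 and 2 reads in specimen 10, were the widest of the 60 genes.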

Other observations

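The MSC treated libraries also differed among themselves in the adhesion genes. Of the 63 genes, specimen 20 gave the highest MSC treated value for 32, specimen 18 for 26 and specimen 13 for 5. The median of log2(scaled count + 1) over the 63 genes was 6.14 in specimen 13, 6.49 in specimen 18 and 6.50 in specimen 20, beside 7.01, 8.47 and 5.95 in sound trauma specimens 6, 8 and 10. Over all genes tested the same median was between 8.00 and 8.12 in the 6 libraries. Lrrtm2 was 33.0 in specimen 20 beside 8.31 and 10.2 in specimens 13 and 18, and Chl1 was 237 beside 92.5 and 70.5. Opcml was 22.9 in specimen 13 beside 113 and 82.5, and Cdh20 was 7.27 beside 41.9 and 20.4.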
